A study of Caenorhabditis elegans with 2 samples.

Results

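The genes described here encode the machinery that transcribes nuclear genes in Caenorhabditis elegans: the Mediator complex, TFIID with its TATA-binding protein, the other general transcription factors, and RNA polymerases I, II and III. Members were the protein-coding genes of Ensembl's WBcel235 annotation whose name starts with mdt-, taf-, tbp-, ttb-, gtf-, rpb-, rpc-, rpoa- or ama-. These were 69 of 19973 protein-coding genes, namely 20 Mediator genes, 18 of TFIID, 11 of the other general factors, 12 of polymerase II, 4 of polymerase III and 4 of polymerase I. The study mapped the chromatin sites of MADF-3, a nematode protein with a MADF domain, by chromatin immunoprecipitation and sequencing. All worms came from strain RW12241, allele st12241, in which CRISPR placed TY1, EGFP and 3xFLAG tags at the madf-3 gene on chromosome II. Whole animals were harvested as young adults of 63 hours after synchronisation by bleaching and L1 starvation, and chromatin was recovered through the GFP tag. There were 2 biological replicates of this 1 group, and control libraries were not analysed here. Whole worms pool the germline and all somatic tissues, so a peak has no tissue assigned to it.

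RNA polymerase II makes messenger RNA, polymerase I the large ribosomal RNAs, and polymerase III transfer RNAs and other small RNAs. TFIID recognises core promoters through TBP and its TAF subunits. TFIIA, TFIIB, TFIIE, TFIIF and TFIIH complete the preinitiation complex, and Mediator carries signals from DNA-bound factors to polymerase II. In the germline lineage of the early C. elegans embryo, transcription is held back in part by OMA-1 and OMA-2, which bind TAF-4 and keep it out of the nucleus.

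A gene was counted as having a promoter peak where a summit of the series-wide thresholded peak list lay within 500 bp of its annotated 5' end. By this rule 10 of the 69 genes (14.5%, exact 95% interval 7.17 to 25%) had one, and 6.26% of all protein-coding genes did. The 10 genes were mdt-8, mdt-9, mdt-17, mdt-22, mdt-26 and mdt-30 of Mediator, taf-4 of TFIID, rpb-11 and rpb-12 of polymerase II, and rpc-2 of polymerase III. No gene of the other general factors or of polymerase I was among them. Of the 10 summits, 7 were upstream of the 5' end and 3 downstream. The intervals cover counting of genes only, and the sequencing depth is unknown because peaks were deposited without read counts.

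The bases under the summits of rpb-11 and mdt-26, the strongest of these peaks outside the taf-4 one, and of mdt-17, mdt-8 and rpc-2, where the summit lay in coding sequence, are printed below so that both placements can be seen. Each run holds 101 bases of the RefSeq genome of WBcel235, the assembly of ce11, on the strand of the gene, and capitals mark the summit base with 5 bases on either side.
rpb-11, chrII:14059902-14060002, plus strand, upstream: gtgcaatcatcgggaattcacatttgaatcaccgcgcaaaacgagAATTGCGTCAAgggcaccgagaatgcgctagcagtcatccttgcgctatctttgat
mdt-26, chrII:5661035-5661135, plus strand, upstream: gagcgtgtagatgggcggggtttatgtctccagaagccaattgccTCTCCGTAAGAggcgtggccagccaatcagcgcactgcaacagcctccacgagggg
mdt-17, chrV:20267059-20267159, minus strand, coding: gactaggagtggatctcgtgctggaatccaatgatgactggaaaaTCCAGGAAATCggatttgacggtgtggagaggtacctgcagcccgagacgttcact
mdt-8, chrII:11533633-11533733, minus strand, coding: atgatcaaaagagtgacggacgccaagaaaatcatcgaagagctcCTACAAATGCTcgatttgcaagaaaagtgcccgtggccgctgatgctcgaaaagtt
rpc-2, chrIII:5557371-5557471, plus strand, coding: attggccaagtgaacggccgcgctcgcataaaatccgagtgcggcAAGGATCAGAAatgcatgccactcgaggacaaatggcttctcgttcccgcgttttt

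The GC content of the 101 bases around the 10 summits had a median of 47.5% and ran from 41.6% at mdt-30 to 63.4% at taf-4. Over all 1082 promoter peaks of the list the median was also 47.5%, and over windows of the same length centred 100 bp upstream of every protein-coding 5' end it was 33.7%. Of 7 short words sought on both strands, 2 were found. GGGCGG, a word bound by Sp1-like factors, stood near the start of the mdt-26 window printed above, and 5.82% of promoter peaks and 3.40% of the gene windows held it. GAGAGA was found at mdt-30, with 12.1% of promoter peaks and 9.03% of gene windows holding it. TTCCCGCC, TTTCCCGC, TGATAA, TTTTTTTT and CTGCGTCT were in none of the 10 windows. Each of these 5 words was in at most 4.53% of promoter peaks.

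Mediator had the most genes with a promoter peak, 6 of 20 (30%, exact interval 11.9 to 54.3%). Those 6 encode subunits of the head and middle of the complex, the parts that contact polymerase II. By the module of their orthologues, among genes named mdt- only, 4 of 9 head genes (44.4%, interval 13.7 to 78.8%), 2 of 8 middle genes and 0 of 3 tail genes had one. These tail genes were mdt-15, a regulator of fat metabolism in worms, mdt-27 and mdt-29. The tail also holds MED14, encoded by rgr-1, a gene that the name rule does not take. A promoter peak was found at rgr-1, as given below. The intervals of the modules overlap, and with 3 tail genes a count of 0 sets no useful limit.

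**Figure D1:**
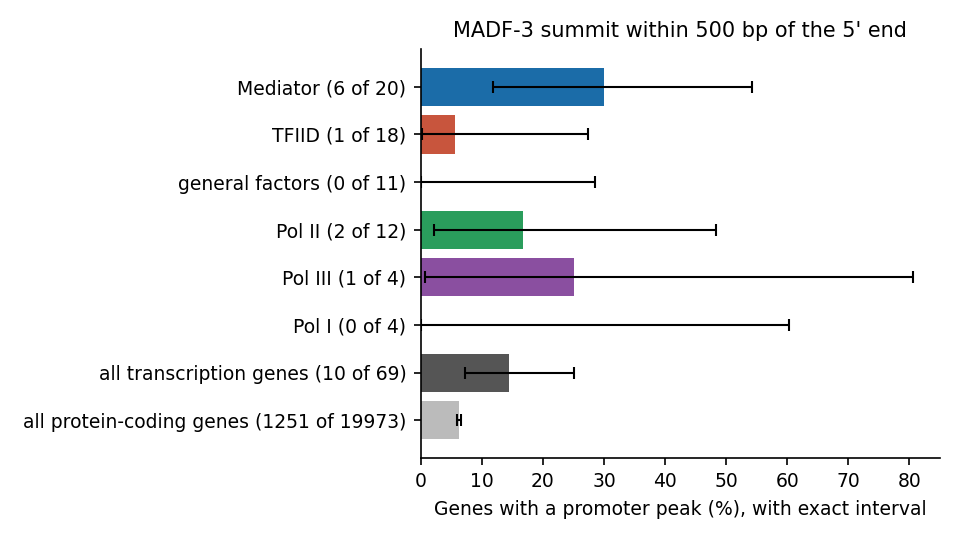
Percentage of genes with a summit within 500 bp of the 5' end, for each complex, for the 69 genes together and for all protein-coding genes. Bars are shares and lines exact 95% intervals; Mediator stands at 30% and all protein-coding genes at 6.26%, and the intervals of all 6 complexes overlap one another.

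The head genes were mdt-8, mdt-17, mdt-22 and mdt-30. At mdt-22 (WBGene00007022) the peak on II from 10301059 to 10301278 had a signal of 58.1 in replicate 1 and 60.3 in replicate 2 (59.2 ± 1.56, SD, n = 2), and its summit was at -47 bp, where negative is upstream. The signal is the strength the peak caller gave each peak, and no label or header states its scale. mdt-22 is nested in clpp-1, a gene for a mitochondrial protease on the other strand, so the summit also lies in an intron of clpp-1. The peak at mdt-17 (WBGene00007017), the gene of a central head subunit, on V from 20266999 to 20267218, had 63.1 in replicate 1 and 48.8 in replicate 2 (56.0 ± 10.1, SD, n = 2). Its summit was at 138 bp, inside the coding sequence of mdt-17.

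The peaks at mdt-8 and mdt-30 were weaker. mdt-8 (WBGene00007013) had 31.3 in replicate 1 and 28.7 in replicate 2 on II from 11533573 to 11533792, with the summit at 133 bp in its coding sequence. A second peak lay at -821 bp from mdt-8, on II from 11534527 to 11534746, at -158 bp from the gene before it, Y62F5A.12, with 38.9 in replicate 1 and 44.3 in replicate 2. mdt-30 (WBGene00004125) had 29.8 in replicate 1 and 34.9 in replicate 2 on III from 8027940 to 8028159, at -8 bp. Neither of these promoter peaks was in the thresholded list of either replicate.

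The middle genes were mdt-26 and mdt-9. mdt-26 (WBGene00016115), whose mammalian orthologue links Mediator to elongation factors, had the strongest promoter peak of the complex. On II from 5661059 to 5661130, it had 95.1 in replicate 1 and 96.6 in replicate 2 (95.8 ± 1.1, SD, n = 2) and ranked 199 of 2741 peaks in the series-wide list. Its summit was at -96 bp and at -299 bp from the divergent gene ift-43, an intraflagellar transport gene. A stronger peak lay inside the mdt-26 coding sequence at 594 bp, on II from 5661724 to 5661908, with 165 in replicate 1 and 138 in replicate 2, and ranked 82. The other members with a summit beyond 500 bp and up to 1000 bp had signals of at most 93.4 there in the series-wide list, where this peak had 340.

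At mdt-9 (WBGene00014938) the replicates were far apart. The peak on IV from 13386160 to 13386379 had 46.9 in replicate 1 and 25.1 in replicate 2 (36.0 ± 15.4, SD, n = 2). Its summit was at -110 bp from mdt-9, nearer to Y62E10A.23 on the same strand, at -54 bp, and at -179 bp from the divergent Y62E10A.20. Which of these genes the peak belongs to cannot be told apart.

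The polymerase II genes with a promoter peak were rpb-11 and rpb-12, 2 of 12 (16.7%, interval 2.09 to 48.4%). rpb-11 (WBGene00012187) encodes a core subunit that pairs with RPB-3, and its peak on II from 14059921 to 14060007 had 95.0 in replicate 1 and 123 in replicate 2 (109 ± 19.5, SD, n = 2). The summit was 133 bp upstream, no other protein-coding 5' end was within 500 bp, and it ranked 139 of 2741. The peaks at rpb-11 and mdt-26 were 87 and 72 bp wide, among the 51 of 2741 peaks (1.86%) under 100 bp, while 94.6% of peaks were 220 bp wide.

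The peak at rpb-12 (WBGene00009078), which encodes a small subunit common to polymerases I, II and III, had a signal in 1 replicate only. It was in the series-wide and conservative lists, which derive from both replicates, and in neither replicate's thresholded list. On IV from 9147078 to 9147297, it was met by a ranked peak of 36.1 in replicate 2 and by none in replicate 1. Its summit was at -319 bp, and at -280 bp from the divergent aly-2, an RNA export gene. Of the 5 subunits common to the polymerases, rpb-5, rpb-6, rpb-8, rpb-10 and rpb-12, this was the 1 with a promoter peak, against 1 of the 7 other polymerase II genes. ama-1, which encodes the largest subunit and is the target of alpha-amanitin, had its closest summit 63107 bp away.

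TFIID had 1 gene with a promoter peak of 18 (5.56%, interval 0.141 to 27.3%), and that peak was the strongest of the 10. taf-4 (WBGene00006385) had 567 in replicate 1 and 578 in replicate 2, close to each other and far above all other members, and ranked 11 of 2741. That summit, at -322 bp, was outside the window of 200 bp tried as an alternative. The genes of TBP (tbp-1) and of the largest TFIID subunit (taf-1) had their closest summits 45697 and 27029 bp away. Of the 18, 3 are on X (taf-3, taf-7.1 and taf-11.1), which together with mdt-1.2 make 4 members on X. None of these 4 had a promoter peak (exact upper bound 60.2%), and so few genes set no useful limit.

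Polymerase III had 1 of 4 (25%, interval 0.631 to 80.6%), rpc-2 (WBGene00017300), the gene of the second largest subunit. On III from 5557311 to 5557530, its peak had 44.8 in replicate 1 and 31.1 in replicate 2 (37.9 ± 9.67, SD, n = 2), with the summit at 56 bp in the coding sequence. It was in the thresholded list of replicate 1 and not in that of replicate 2. The genes rpc-1, rpc-11 and rpc-25 had none.

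None of the other general factors (0 of 11, exact upper bound 28.5%) and none of the polymerase I genes (0 of 4, exact upper bound 60.2%) had a promoter peak. The 11 were ttb-1, the TFIIB gene, with gtf-2A2 of TFIIA, gtf-2E1 and gtf-2E2 of TFIIE, gtf-2F1 and gtf-2F2 of TFIIF, and 5 of TFIIH. These bounds are above the share of all 69 genes, so a lack of peaks in these complexes was not detectable with so few genes.

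**Figure D2:**
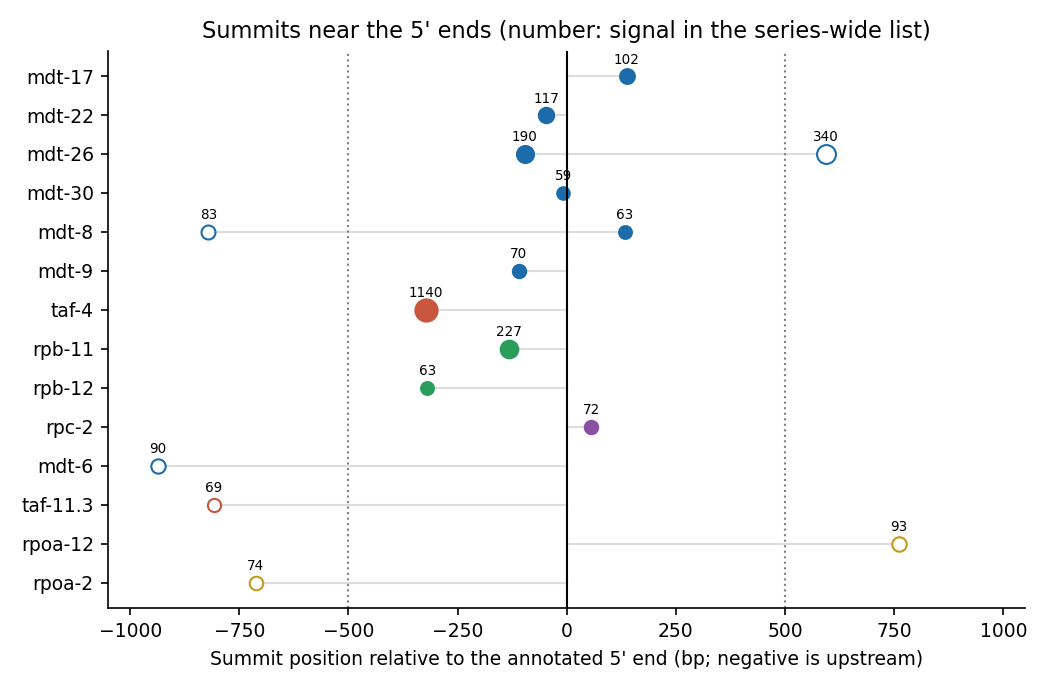
Position of each summit within 1000 bp of a member's 5' end (x axis, bp, negative upstream), with the signal of the series-wide list as a number and, not to scale, as the size of the point. Filled points are within 500 bp and open points are outside; colours are blue for Mediator, red for TFIID, green for polymerase II, purple for polymerase III and yellow for polymerase I. The taf-4 point, at 1140, is the strongest, and 7 of the 10 filled points are upstream.

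Across the 10 peaks the median signal in the series-wide list was 86.8, with a range of 58.7 to 1140, and over all 1082 promoter peaks the median was 80.5. The median summit position was -71.5 bp, against -109 bp for the nearest 5' end over all promoter peaks, of which 740 (68.4%) were upstream. For 8 of the 10 the member was the nearest gene. Of the 10, 3 had another protein-coding 5' end within 500 bp, and of all 1082 promoter peaks 220 (20.3%) had 2 or more. All 10 were met in the conservative list. The lists of both replicates met 5 of them (mdt-17, mdt-22, mdt-26, taf-4 and rpb-11), and neither met 4 (mdt-8, mdt-9, mdt-30 and rpb-12). For comparison, 338 of the 1082 promoter peaks were met in both.

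The 5' ends just outside the window belonged to rpoa-2, rpoa-12, taf-11.3 and mdt-6. At rpoa-2 (WBGene00008781), the gene of the second largest polymerase I subunit, the closest summit was at -712 bp and at -155 bp from prom-1, a meiosis gene. The summit at 761 bp from rpoa-12, another polymerase I gene, was at 75 bp from the proteasome gene pas-1, and its signals were 70.4 in replicate 1 and 18.8 in replicate 2. taf-11.3, 1 of 3 genes related to TAF11, had a summit at -809 bp farther than 500 bp from any protein-coding 5' end. The summit at -937 bp from mdt-6 was at 31 bp from Y57E12AL.1 and -91 bp from Y57E12AL.6. In the conservative list mdt-6, a head gene, had a further peak at 70 bp, on V from 7059444 to 7059663, with 27.9 in replicate 1 and 38.9 in replicate 2.

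The number of genes depended on the list. In the conservative list 11 of the 69 genes had a promoter peak and 6.14% of all genes did. In the thresholded list of replicate 1 there were 6 and 3.02% of all genes, and in that of replicate 2 there were 5 and 2.85%. All of these were among the 10, apart from mdt-6 in the conservative list. With a window of 200 bp 8 genes had a peak and 3.15% of all genes, and taf-4 and rpb-12 were the 2 lost. A window of 1000 bp gave 14, the 10 with the 4 genes just outside, and 8.76% of all genes. Among the 1370 peaks of highest signal 5 genes kept a promoter peak and 4.0% of all genes had one. Giving each peak to its nearest gene alone left 8 and 5.21% of all genes. With any base of the peak in place of the summit the same 10 had one and 6.83% of all genes, and with the 5' end of any transcript the same 10 and 6.88%.

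**Figure D3:**
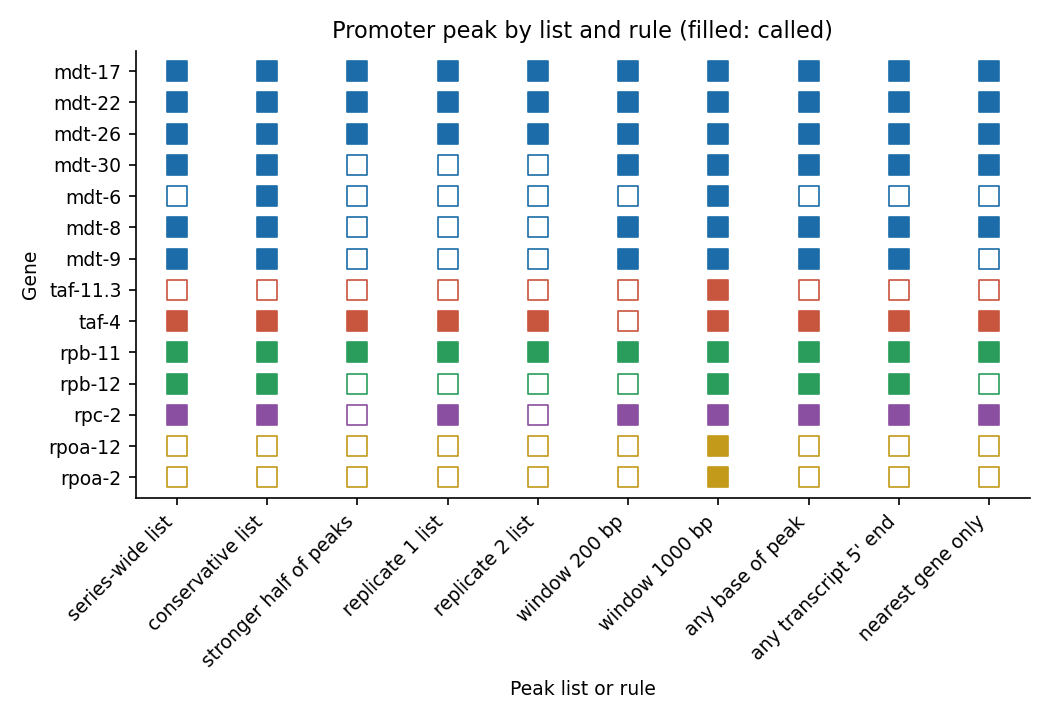
Genes with a promoter peak in at least 1 of 10 peak lists or rules (rows) and the list or rule (columns). Filled squares are called and open squares are not, coloured by complex as in the plot of summit positions; mdt-17, mdt-22, mdt-26 and rpb-11 are filled throughout, and taf-4 in all but the 200 bp window.

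A value for every gene, also those with no thresholded peak, comes from the replicates' ranked lists, which hold weak candidate peaks as well. The promoter signal of a gene is the highest signal of a ranked peak with its summit within 500 bp of the 5' end, and 0 where there is none. Over the 69 genes the median was 18.1 in replicate 1 and 16 in replicate 2, and over all protein-coding genes 12.5 and 13.1. In both replicates 39 of the 69 genes (56.5%) had a ranked peak, compared with 47.1% of all genes, and 10 (14.5%) had none in either, compared with 23.7%. Ranked among all protein-coding genes and averaged over the replicates, the 69 genes had a median percentile of 59.9, against 48.3 over all genes. These values include the genes with a promoter peak. Without those genes the median percentile was 52.6 for members and 45.9 for all protein-coding genes.

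Single genes of the complexes overlapped in promoter signal. Medians over the mean of both replicates were 17.7 for Mediator, 13.3 for TFIID, 9.49 for the other general factors, 18.8 for polymerase II, 17.9 for polymerase III and 18.1 for polymerase I, with 11.0 over all protein-coding genes. Without the genes that had a promoter peak, the Mediator median was 10.5 and that of all protein-coding genes 9.97. TFIID then had 12.2, polymerase II 18.7 and polymerase III 9.35. The TFIID median was 15.9 in replicate 1 and 9.02 in replicate 2, below the Mediator median of 21.3 in replicate 1 and 17.2 in replicate 2, a difference that was not tested. Mediator genes were spread widely. The lowest of the 6 with a promoter peak, mdt-8, lay at the 91.9th percentile. That cut was taken from these 6 genes, so their place at or above it was fixed. Of the genes without a promoter peak only mdt-6 lay above it, while mdt-10, mdt-19, mdt-20 and mdt-21 had no ranked peak in either replicate. The genes of the TFIID subunits taf-1, taf-2 and taf-7.2, of gtf-2F1 and gtf-2H4, and of rpoa-1 were also at 0 in both. All 12 polymerase II genes and all 4 of polymerase III had a ranked peak in at least 1 replicate. Over all protein-coding genes 23.7% had none in either.

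**Figure D4:**
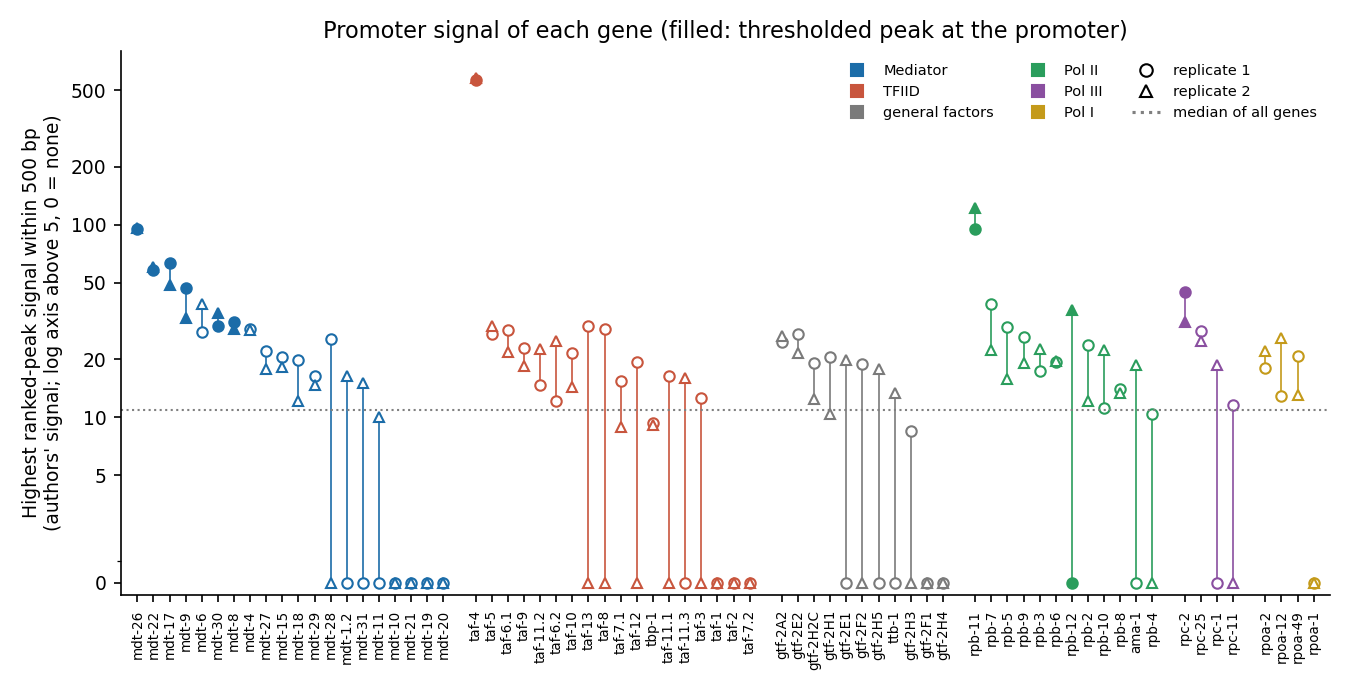
Highest ranked-peak signal within 500 bp of the 5' end (y axis, the authors' signal, log scale above 5) for each of the 69 genes, grouped by complex and sorted by the mean. Circles are replicate 1, triangles replicate 2, filled symbols have a thresholded promoter peak, and the dotted line is the median of all protein-coding genes (11.0); taf-4 stands at 567 and 578, and most other genes lie below 40.

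In each complex 1 gene without a promoter peak had the highest promoter signal. For Mediator this was mdt-6, with 27.9 in replicate 1 and 38.9 in replicate 2. For TFIID it was taf-5, a WD-repeat subunit, with 27.2 and 29.9, and among the other general factors gtf-2A2, the small TFIIA subunit, with 24.7 and 26.6. rpb-7, a subunit of the polymerase II stalk, had 38.6 in replicate 1 and 22.5 in replicate 2. rpc-25, its counterpart in polymerase III, had 28.0 and 25, and rpoa-2 had 18.1 and 22. Genes with and without a promoter peak thus overlapped in this range, since mdt-8 had 31.3 and 28.7.

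Worm genes often lie in operons, in which several genes on 1 strand are transcribed from the promoter of the first. The annotation used here names no operons, so genes were sorted by whether another protein-coding gene on their strand ended within 500 bp upstream, an arrangement examined after seeing the data. Of the 69 genes 28 (40.6%) had such a neighbour, and of all protein-coding genes 18.1%. Promoter peaks were found at 4 of these 28 (14.3%, exact interval 4.03 to 32.7%) and at 6 of the other 41 (14.6%, interval 5.57 to 29.2%). Over all genes the shares were 9.07% with such a neighbour and 5.64% without.

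The first gene of the run had a promoter peak for 5 of the 28 (17.9%), and for 11.6% of all protein-coding genes with such a neighbour. One of the 5, mdt-8, had its own as well. The others were mdt-11, mdt-28 and mdt-6 of Mediator and rpb-5 of the polymerases. Before mdt-11 stood wip-1, a gene of the actin cytoskeleton, with a peak on III from 5018262 to 5018318 that had 157 in replicate 1 and 113 in replicate 2 and ranked 103. The summit was at -324 bp from wip-1, whose 5' end is 2585 bp from that of mdt-11. rpb-5 followed syp-4, a gene of the synaptonemal complex, whose peak had 36.5 in replicate 1 and 40 in replicate 2. The run of mdt-28 began with F28F8.7, 15212 bp away, and that of mdt-6 with Y57E12AL.6. Counting a gene where either it or the first gene of its run had a peak, 14 of the 69 genes were reached and 7.87% of all protein-coding genes, with 9 of 20 Mediator genes and 0 of 11 other general factors among the 69. This count can add only genes with such a neighbour, which are 40.6% of members and 18.1% of all genes. Among genes with such a neighbour, 8 of 28 members and 649 of 3615 protein-coding genes were reached.

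Other genes of the same processes, whose names the rule does not take, were sorted into 5 lists. Of 9 Mediator genes with other names (cdk-8, cic-1, let-19, dpy-22, sur-2, lin-25, rgr-1, sop-3 and let-49) 1 had a promoter peak (11.1%). This was rgr-1 (WBGene00004343), which encodes the MED14 scaffold, a subunit counted here with the tail. Its peak on III from 9393343 to 9393562, at -277 bp, had 55.5 in replicate 1 and 66.7 in replicate 2 (61.1 ± 7.98, SD, n = 2). With these 9 genes, 7 of 29 Mediator genes had a promoter peak. None of the 4 kinase module genes, cdk-8, cic-1, let-19 and dpy-22, did.

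Of 14 TFIIH and polymerase tail enzymes 3 had a promoter peak (21.4%). cit-1.1, a cyclin T of the elongation kinase P-TEFb, had 202 in replicate 1 and 173 in replicate 2 (188 ± 20.4, SD, n = 2) on III from 8009903 to 8010037, at -154 bp, and ranked 72. The others were cids-2, a protein that binds the polymerase tail, with 56.8 and 60.1, and ssup-72, a phosphatase of the tail, with 33.5 and 34.6. Of 13 elongation genes 2 had one (15.4%), pafo-1 of the PAF1 complex, with 37.3 in replicate 1 and 70.8 in replicate 2, and hmg-3 of the FACT complex, with 42.1 and 35.7.

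Integrator, which cleaves small nuclear RNAs and other polymerase II transcripts, had 2 of 11 genes with a peak (18.2%), ints-7 and ints-8. The last list was mixed and not limited to polymerases I and III. It held rpac-19, rpac-40, brf-1, tlf-1, tftc-1, tftc-3 and tftc-5. The rest were the SNAPc genes snpc-1.1, snpc-1.2, snpc-1.3, snpc-3.1, snpc-3.2, snpc-3.4 and snpc-4. Of these 14 genes 4 had a promoter peak (28.6%, interval 8.39 to 58.1%). They were rpac-19, a subunit common to polymerases I and III, tftc-3 of TFIIIC, and snpc-3.1 and snpc-3.4 of SNAPc, the factor of small nuclear RNA genes. snpc-3.4 was the strongest, with 106 in replicate 1 and 126 in replicate 2 (116 ± 14.2, SD, n = 2) on III from 4019959 to 4020013, at -45 bp. The summit at snpc-3.1 was nearer to puf-7. Each list is small, and the share of all protein-coding genes, 6.26%, lay within the exact intervals of all but the last. That exception depends on the peak at snpc-3.1. A count of 3 of 14, as for the TFIIH and polymerase tail enzymes, has an interval that starts at 4.66%.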

How the data were processed

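Chromatin immunoprecipitation was done on 2 biological replicates, per the labels. The authors deposited peak lists on build ce11. No source used here names the aligner, the peak caller, its control or their versions. The signal was deposited by the authors as their peak caller gave it. The score, deposited by the authors, is a whole number of up to 1000; the lists are named after the irreproducible discovery rate, which compares the ranks of peaks between sets. Scores in the series-wide thresholded list started at 830. It held 2741 peaks, the conservative list 2631, and the lists of replicates 1 and 2 held 962 and 863 (ranked lists 77320 and 79846). Of 215 ranked peaks that reach a score of 830 and are missing from the series-wide list, 0 were at a member's promoter.

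Genes came from Ensembl release 115, sequences from the RefSeq genome of the same assembly. Summits used the deposited offset and positions are 1-based. A replicate's signal at a peak is the highest of an overlapping peak in its ranked list. Intervals are exact Clopper-Pearson intervals at 95% (scipy 1.17.1), also for a count of 0, and no p-value was computed, since there is 1 group. The scripts were tested on simulated data. Members, lists and settings were chosen with earlier results of these data known. Named were members with a promoter peak, the strongest without one in each complex, those with a summit beyond 500 and up to 1000 bp, neighbouring genes, and genes of the other lists with a promoter peak. Other settings tried were windows of 200 and 1000 bp, the conservative list, the lists of single replicates, the 1370 peaks of highest signal, any base of the peak, transcript 5' ends and nearest gene only. The same-strand runs were added after seeing the data.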

Additional observations from a re-analysis of the deposited data

How the results depend on the processing

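The conservative list, any base of the peak and transcript 5' ends kept the count of each complex within 1.5 times; the values below are the exceptions under the other settings. Among the 1370 stronger peaks the genes with a promoter peak were 5 in all, 3 of Mediator, 1 of polymerase II and 0 of polymerase III (4.0% of all genes). With 1 replicate's list alone there were 5 to 6 in all, 3 of Mediator in either, 1 of polymerase II in either and 0 to 1 of polymerase III. A window of 200 bp gave 0 for TFIID and 1 for polymerase II, and 1000 bp gave 2 for TFIID and 2 for polymerase I. With nearest genes only polymerase II had 1, since rpb-12 was lost (5.21% of all genes). The cause of these moves was not tested. Depth limits could not be set without read counts, and no paired analysis was possible because there is 1 group.

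The median promoter signal was lower with a narrower window, which holds fewer ranked peaks, except for polymerase III, where it was 17.9 with 200 bp as with 500 bp. With 200 bp it was 8.91 for all members, 8.69 for Mediator, 8.22 for TFIID, 4.28 for the other general factors, 11.6 for polymerase II, 13.8 for polymerase I and 1.43 for all protein-coding genes. With 1000 bp it was 19.5 for all members, 20.4 for Mediator, 18.9 for the other general factors and 21.4 for polymerase II. It was 18.8 for polymerase III, 26.9 for polymerase I and 17.4 for all protein-coding genes. TFIID, at 16.5 with 1000 bp, was then below all protein-coding genes. With 500 bp it was above them over the mean of both replicates (13.3 against 11.0). The replicates differed at 500 bp, where TFIID was above all protein-coding genes in replicate 1 (15.9 against 12.5) and below them in replicate 2 (9.02 against 13.1). Single replicates gave 16 to 18.1 for all members, 17.2 to 21.3 for Mediator, 8.56 to 12.4 for the other general factors, 19.8 to 21.8 for polymerase III and 15.5 to 17.6 for polymerase I. Taking the overlapping peak with the nearest summit left the signal of each of the 10 promoter peaks as it was.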
